A study of Mus musculus with 12 samples.

Results

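The genes described here encode the cytosolic translation initiation and elongation factors, together with a few enzymes that modify the elongation factors, in mouse pancreatic islets. They were chosen by name: the protein-coding genes of GENCODE M21 whose symbol starts with Eif1 to Eif6 or with Eef1 or Eef2, without the eIF2 kinases (Eif2ak) and the eIF4E-binding proteins (Eif4ebp). This gave 61 genes of 18299 protein-coding genes in the deposited table. The rule itself uses no expression value, but it was set with earlier results of these data known. The islets, clusters of hormone-secreting cells that consist mostly of insulin-producing beta cells, came from wild-type male mice aged 10 to 12 weeks and were cultured in lots of about 120. The groups were palmitate with C3a, palmitate, vehicle with C3a and vehicle, with 3 messenger RNA libraries each. Palmitate is a saturated fatty acid used to stress beta cells, and C3a is the fragment released on activation of complement C3. The doses and the length of treatment are not in the labels. Whether a group's 3 libraries stem from different mice or cultures is not stated either, so the p-values given here measure only how much these libraries differ, which may be technical.

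Initiation factors assemble the small ribosomal subunit with the initiator tRNA, bring it to the capped end of the messenger RNA and let it scan to the start codon. The complex eIF2 carries the initiator tRNA and is recharged with GTP by eIF2B, eIF3 is the large scaffold on the small subunit, and eIF4F binds the cap and unwinds the leader. Elongation factors then deliver aminoacyl-tRNAs (eEF1) and move the ribosome along the message (eEF2). Beta cells translate very large amounts of proinsulin message, and phosphorylation of the eIF2 alpha subunit is the step through which cellular stress slows initiation in these and other cells.

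Sequencing batch 1 held replicate 1 of each group and batch 2 held replicates 2 and 3, with totals of 22216420 to 26110989 estimated counts in the 4 libraries of batch 1 and 35876350 to 50264695 in the 8 of batch 2. Between the batches, 22 of the 61 factor genes (36.1%) differed at an adjusted p under 0.05 in edgeR, close to the 35.7% of all genes. Batch was therefore a term of the main fit. All 61 genes passed the filter on low counts. Levels within a gene are given as CPM, counts scaled to library size with TMM factors, and levels between genes as TPM, which also takes transcript length into account.

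Palmitate raised most of the factor genes by small amounts, and the same was seen in the islets that also received C3a. In palmitate against vehicle, 40 of the 61 genes rose, none fell and 21 did not pass the threshold, by the quasi-likelihood test of edgeR at a Benjamini-Hochberg adjusted p under 0.05 over all genes. Among all 15794 genes tested in that comparison, 25.4% were called in either direction, 13.4% higher and 12% lower. The median log2 fold change of the 61 genes was 0.23, that of all genes was -0.02, and the values ran from -0.14 to 0.64. Palmitate with C3a against vehicle with C3a contrasts the other 6 libraries within the same fit of all 12 libraries. Both comparisons share its spread estimate and batch term, so they are not independent. In this comparison 36 of the 61 genes rose, 1 fell and 24 were not called. Among all genes 26.9% were called, 13.8% higher and 13.1% lower. The median was again 0.23, against 0.01 for all genes, and the values ran from -0.28 to 0.63. In bulk tissue, more RNA per cell and a changed mixture of cells cannot be told apart.

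**Figure D1:**
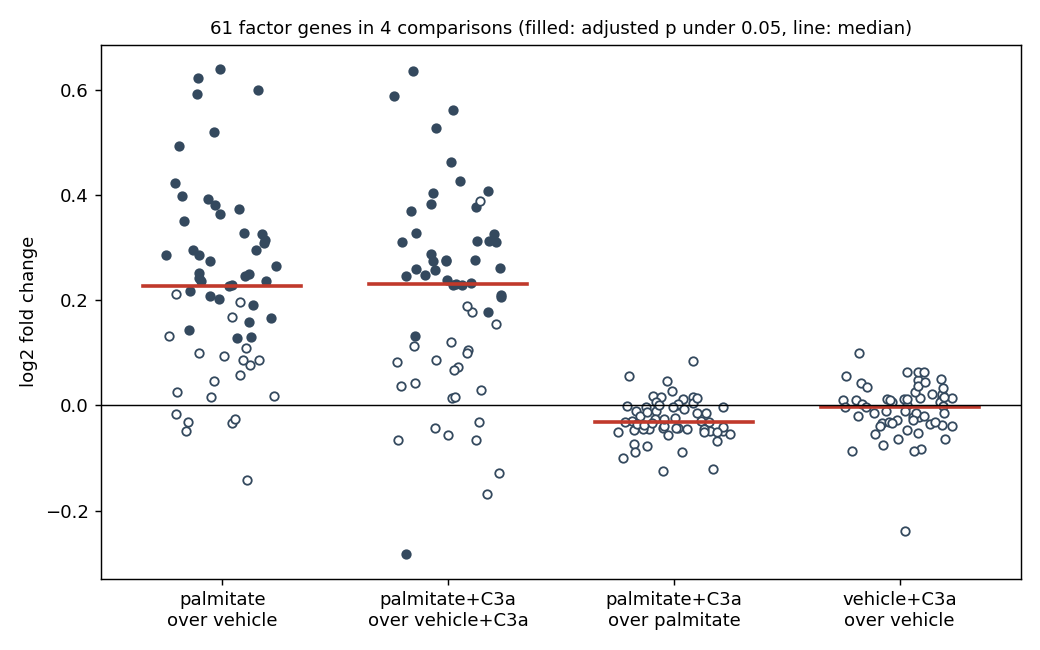
Log2 fold change (vertical axis) of each of the 61 factor genes in 4 comparisons; each point is a gene, filled where its adjusted p in edgeR was under 0.05, and the red line is the median. The medians lie at 0.23 in both palmitate comparisons, with 40 and 37 filled points, and near 0 with no filled point in both C3a comparisons.

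The 36 genes that rose in C3a-treated islets were all among the 40 that rose without C3a (100% of the first list and 90% of the second). Over all genes tested, 1744 were higher in both comparisons, which is 80.2% of those higher with C3a and 82.6% of those higher without it. Eif3m, Eif4a2, Eif4e and Eif4g2 were called higher without C3a and not with it, and their interaction with C3a was not called. With the replicate number as a block, Eif3m and Eif4g2 were called with C3a too (adjusted p = 0.0168 and 0.0418). Counted without a model, 49 factor genes had a higher CPM in all 3 same-numbered pairs of palmitate and vehicle libraries, as had 27.2% of all genes. For 41 factor genes every palmitate library lay above every vehicle library, as it did for 14.4% of all genes. With C3a, 44 genes were higher in all 3 pairs and 36 did not overlap, against 28.1% and 15.2% of all genes. In batch 2 alone, with 2 libraries a group, 25 genes were called higher in either comparison, and batch 1 holds a single library per group and allows no test. Without the batch term 21 and 22 genes were called higher, and Eef1a1, Eef1b2, Eif1, Eif4a1, Eif3b and Eif3f were among those lost in both comparisons.

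The insulin genes Ins1 and Ins2 held 12.5% to 14.2% of all counts in palmitate and 13.5% to 15.98% in vehicle, and 11.7% to 13.8% in palmitate with C3a against 14.4% to 16.9% in vehicle with C3a. Some markers of several cell types were called in the same libraries. Among all genes, 13.4% were called higher and 12% lower without C3a, and 13.8% and 13.1% with it. Of 7 beta cell markers, none rose and 3 fell in both palmitate comparisons, and of 4 endothelial markers none rose and 3 fell without C3a and 2 fell with it. Summed endothelial markers were at 79.0 to 126 CPM in palmitate and 136 to 179 CPM in vehicle, and at 84.6 to 130 CPM in palmitate with C3a against 126 to 162 CPM in vehicle with C3a. Of 3 duct markers, 1 rose in both comparisons, and their sum was 203 to 295 CPM in palmitate and 116 to 177 CPM in vehicle, and 240 to 324 CPM in palmitate with C3a against 89.7 to 130 CPM in vehicle with C3a. Of 4 macrophage markers 1 rose and 1 fell in both comparisons, and 1 of 4 fibroblast and pericyte markers and 1 of 2 lymphocyte markers tested fell in both. Of 3 alpha cell markers 1 fell with C3a, and of 3 proliferation markers 1 fell without it. None of 6 acinar markers was called in either comparison, and no marker of any list was at 0 in all libraries. Beside the shares of all genes called, a single call in so short a list does not show that a cell type changed. The part of these marker differences in the rise of the factor genes was not tested.

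Transcripts of elongation factors and ribosomal proteins are known to begin often with a C followed by a run of pyrimidines, the terminal oligopyrimidine tract that makes their translation sensitive to nutrient signals. RefSeq promoter sequences (GRCm38.p6) were at hand for 47 of the 61 genes, in 61 promoters, since some genes have several annotated starts. A C within 10 bases of the annotated start, followed by at least 6 C or T letters on the coding strand, was found in 13 of those 61 promoters (21.3%), against 4006 of 32790 other promoters (12.2%). Several of the 13 belong to Eif4enif1. Counted by gene, such letters were found in 11 of 47 factor genes and 3810 of 26978 other genes. Some of the runs, as in Eef1akmt2, end before the annotated start and so lie outside that transcript. These windows reach 20 bases to each side of the annotated start. They show the longest run as counted from a C within 10 bases of the start, and 3 other genes with a run. The 2 genes that rose with the smallest p-values, which have none, are shown too. Capitals mark the letters counted, 5′ to 3′ on the gene's strand. The search began 10 bases before the annotated start. In Eif2b5 the pyrimidines go on before the capitals, so its whole run is longer than that of Eif3f.
Eif3f, chr7:108934395-108934434, plus strand: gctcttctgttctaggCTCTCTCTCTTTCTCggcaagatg
Eif2b5, chr16:20498797-20498836, plus strand: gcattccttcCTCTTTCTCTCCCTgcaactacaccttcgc
Eif2s3x, chrX:94212632-94212671, minus strand: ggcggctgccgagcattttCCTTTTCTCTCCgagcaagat
Eef1a1, chr9:78481705-78481744, minus strand: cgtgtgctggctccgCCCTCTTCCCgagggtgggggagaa
Eif3c, chr7:126566347-126566386, minus strand: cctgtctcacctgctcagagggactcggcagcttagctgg
Eif5, chr12:111538081-111538120, plus strand: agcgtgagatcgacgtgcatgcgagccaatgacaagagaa
Of the 11 factor genes with such letters, 7 rose in palmitate against vehicle, and of the 36 without them 23 did. Of the 14 with no promoter sequence at hand 10 rose, and among all genes 13.4% were called higher. Of the elongation factor genes in the promoter table, Eef1a1 had such letters and Eef1a2, Eef1b2, Eef1e1 and Eef2 had none. Only letters near the annotated RefSeq start were searched, so a tract at another start would be missed. A gene without such letters here may therefore still have a tract, and the counts above carry the same limit.

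A second set of letters, TGATGNAA on either strand (TTNCATCA when read from the other strand), is the composite element read by the stress factors CHOP and ATF4. It occurred in 2 of the 61 promoters (3.28%) and in 1302 of 32790 other promoters (3.97%). Both matches are shown because Eif2s3x and Eef2k rose in the palmitate comparisons. The Eef2k match belongs to the most downstream of its annotated starts, and its other promoters had no match. Capitals mark the match, on the gene's strand.
Eef2k, chr7:120851089-120851128, plus strand: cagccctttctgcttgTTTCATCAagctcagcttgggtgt
Eif2s3x, chrX:94212724-94212763, minus strand: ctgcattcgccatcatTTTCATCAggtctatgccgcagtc
A match of letters is a description of the window and not evidence of binding.

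Per transcript length, the elongation factors and a few initiation factors dominated. Eef1a1, the main carrier of aminoacyl-tRNA, averaged 3537 ± 514 TPM (SD over 12 libraries) and alone made up 31.8% to 35.7% of the summed level of the 61 genes. It was followed by Eef2 at 832 ± 127 TPM, Eif1 at 723 ± 134, Eif4a2 at 661 ± 36.5, Eif5a at 429 ± 52.9 and Eef1b2 at 391 ± 62.1 TPM. The range of Eif1 over the libraries overlapped those of Eef2 and of Eif4a2, so its place between them is not fixed by the data, whereas every Eef2 value lay above every Eif4a2 value. The lowest levels were those of Eif4e1b at 0.646 TPM, Eef1akmt3 at 5.45, Eef1akmt4 at 5.68, Eif5a2 at 5.98, Eef1e1 at 7.12 and Eif3j1 at 7.62 TPM. Eif4e1b is known as an oocyte form of the cap-binding protein.

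**Figure D2:**
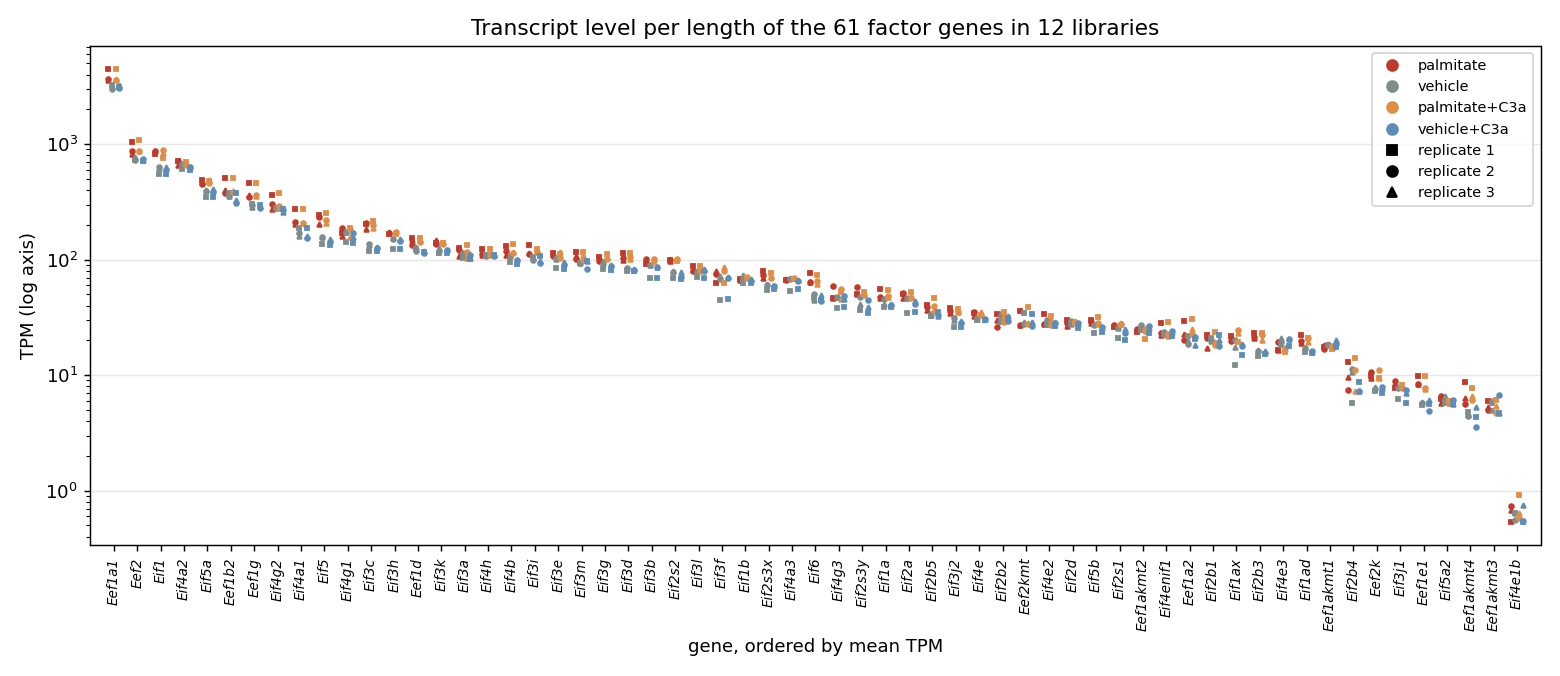
Level per transcript length (TPM, log axis) of the 61 factor genes in each of the 12 libraries, ordered by mean; colours are the groups and shapes the replicates. The levels run from 3537 TPM for Eef1a1 to 0.646 TPM for Eif4e1b, and the points of a gene lie close together beside that range.

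Together the 61 genes held more of the messenger RNA in every palmitate library than in any vehicle library. Their sum was 1.26%, 1.11% and 1.09% of all TPM in palmitate replicates 1, 2 and 3, against 0.925%, 0.946% and 0.966% in vehicle. With C3a it was 1.27%, 1.10% and 1.11% in palmitate, against 0.909%, 0.919% and 0.950% in vehicle. Replicate 1 was the highest in both palmitate groups and the lowest in both vehicle groups. Without Eef1a1 the sum was 0.762% ± 0.0445 in palmitate and 0.631% ± 0.0278 in vehicle (SD, n = 3 each), so the difference did not rest on that gene.

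**Figure D3:**
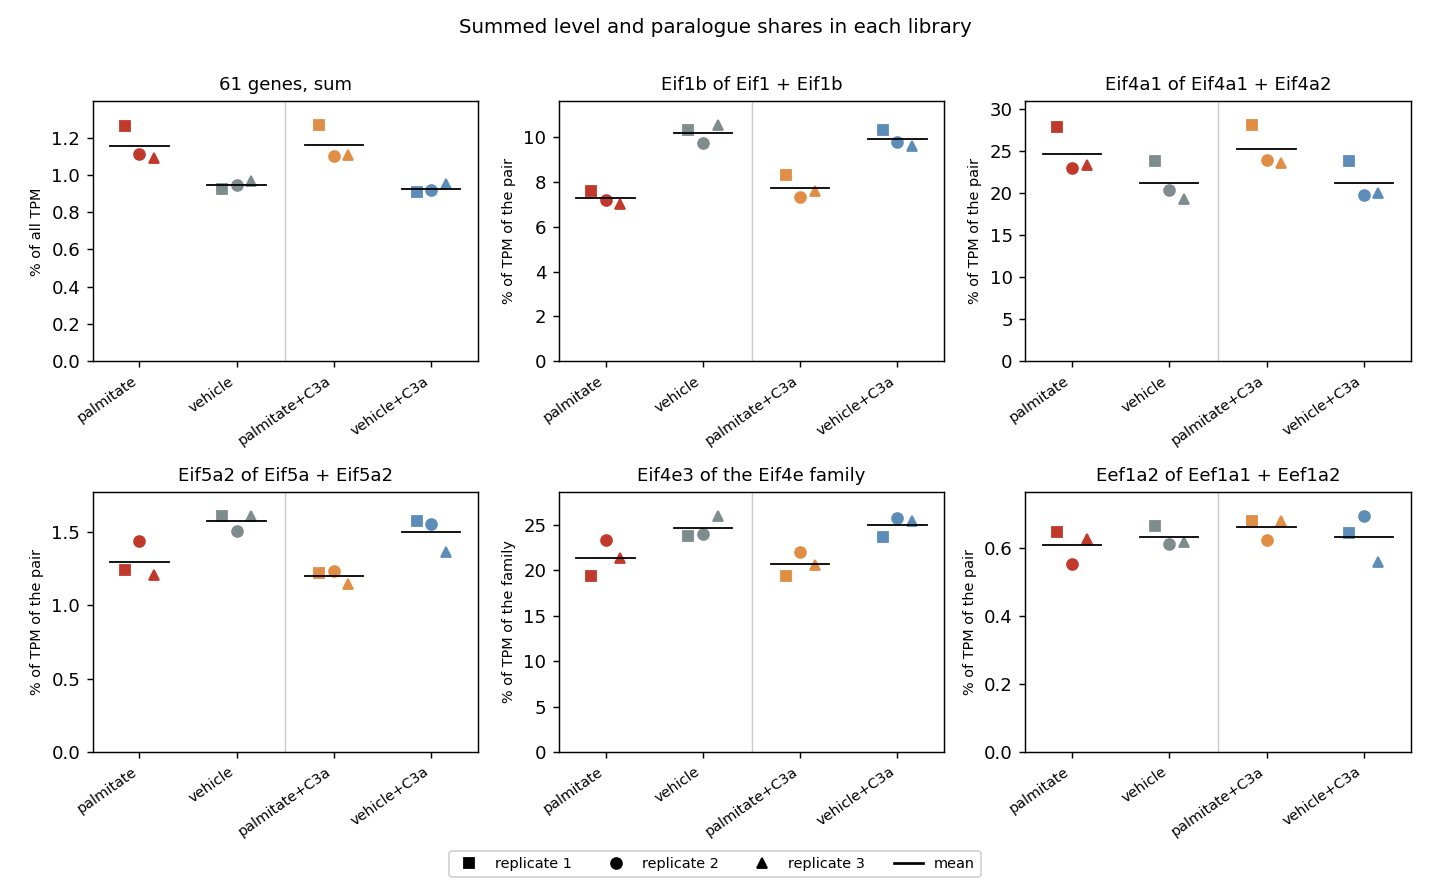
Percent of all TPM held by the 61 genes (top left) and percent of TPM held by a paralogue in 5 pairs or families, by library; points are libraries, shapes are replicates and black lines are group means. The sum lies at 1.09% to 1.27% in the palmitate libraries and at 0.909% to 0.966% in the vehicle libraries, and the share of Eif1b is lower in every palmitate library than in any vehicle library.

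**Figure D4:**
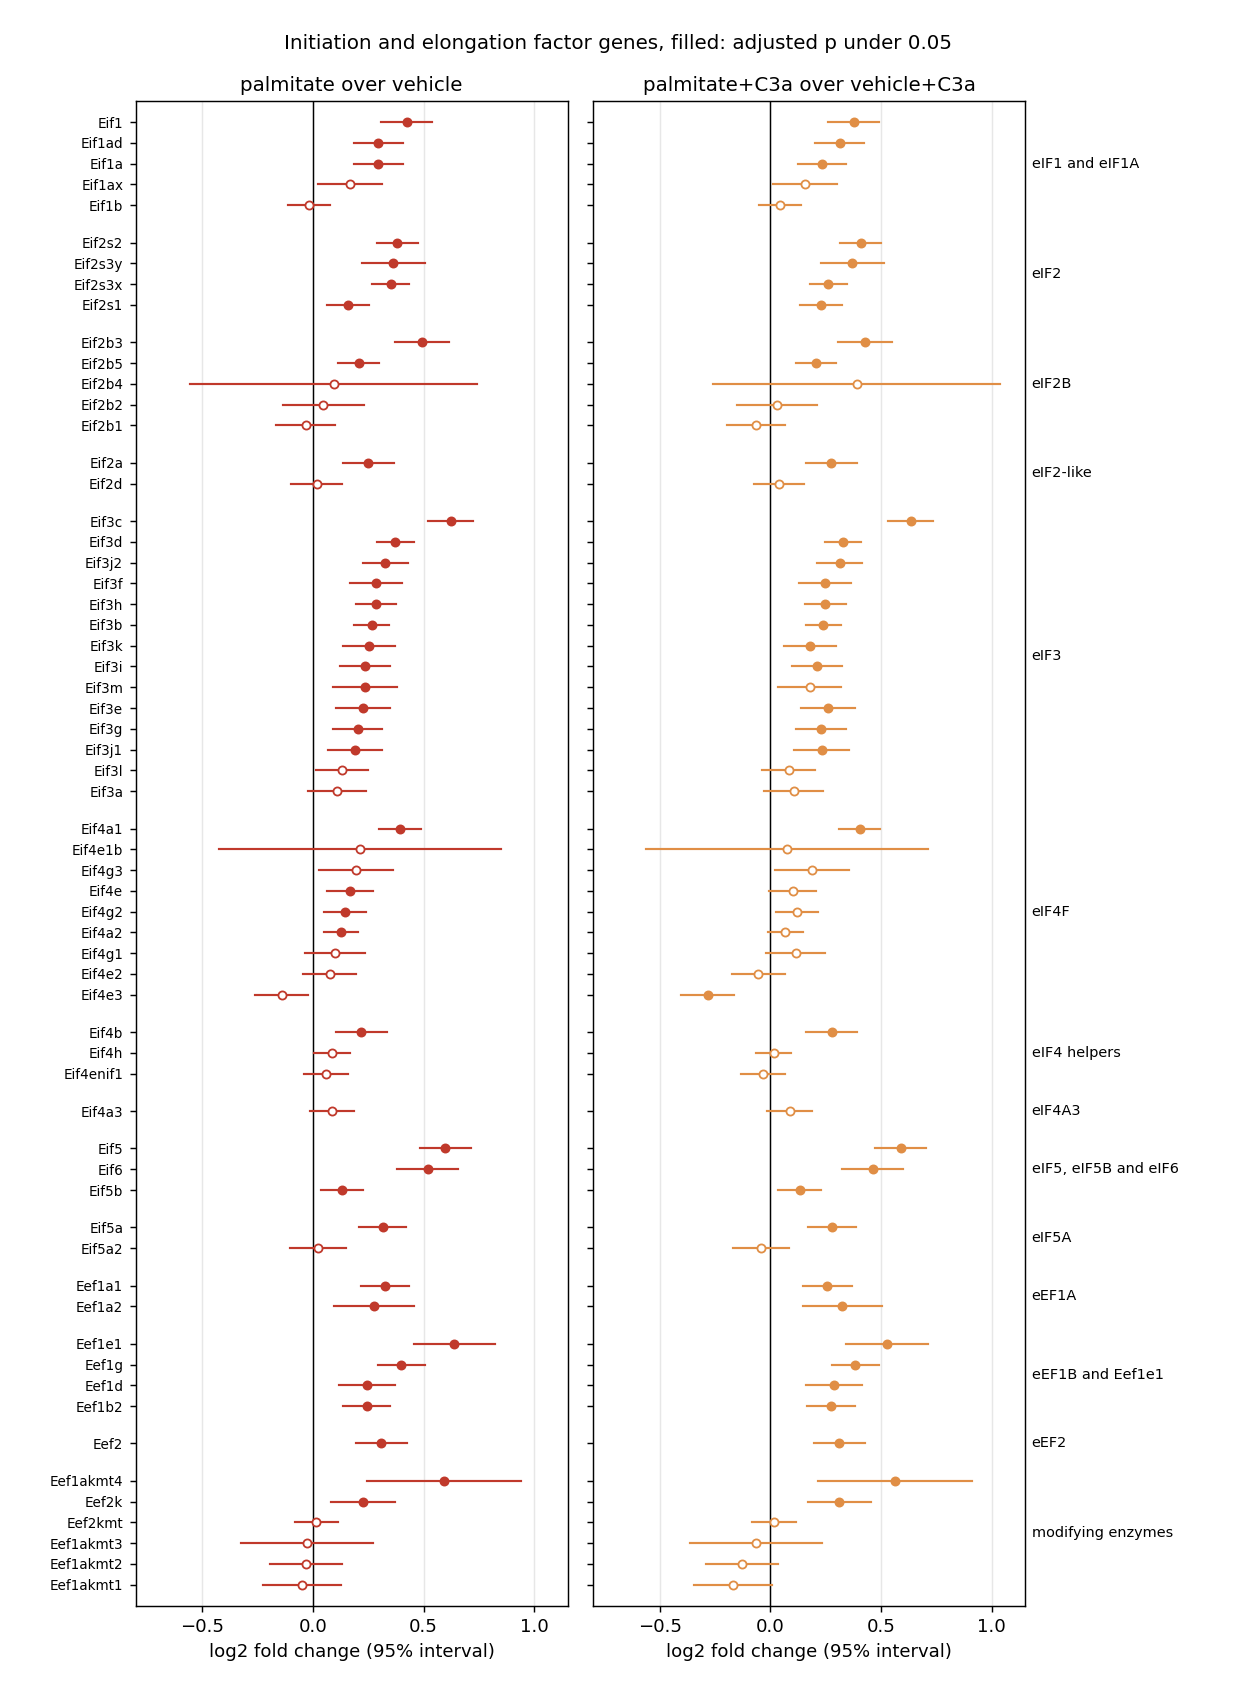
Log2 fold change with its 95% interval (horizontal axis) of every factor gene, grouped by complex, for palmitate over vehicle (left) and palmitate with C3a over vehicle with C3a (right); filled points passed an adjusted p of 0.05 in edgeR. The points of eIF2, eIF3 and the elongation factors lie right of 0, while those of the modifying enzymes spread around 0 except for Eef1akmt4 and Eef2k.

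Of the 5 genes with an Eif1 symbol, 3 rose in both palmitate comparisons, where 13.4% and 13.8% of all genes were called higher. Eif1, which stops scanning ribosomes from starting at a wrong codon, had 512.8, 624.5 and 661.2 CPM in palmitate replicates 1, 2 and 3 and 385.2, 494.0 and 461.4 CPM in vehicle. No vehicle library reached the lowest palmitate library, and the fit gave a log2 fold change of 0.42 ± 0.05 (SE, edgeR adjusted p = 0.000186). With C3a it was at 495.2, 635.1 and 632.3 CPM in palmitate, all above the 417.9, 450.9 and 481.5 CPM in vehicle. Its paralogue Eif1b had 45.9, 47.3 and 49.0 CPM in palmitate and 46.6, 47.4 and 49.9 CPM in vehicle, which overlapped throughout, with a log2 fold change of -0.02 ± 0.04 (adjusted p = 0.821). The share of Eif1b in the TPM of the pair was accordingly 7.03% to 7.60% in palmitate and 9.71% to 10.5% in vehicle, and 7.32% to 8.29% in palmitate with C3a against 9.58% to 10.3% in vehicle with C3a. Eif1a, and Eif1ad, which is grouped here by its symbol, rose by 0.30 each in palmitate against vehicle, and the X-linked Eif1ax, whose protein scans with the small subunit, was at 0.17 ± 0.07 and was not called. Eif1 shares 36.8% of its 31-base words with other annotated transcripts, pseudogenes among them, so its count is less certain than that of Eif1b. The largest part, 23.5%, is shared with the protein-coding gene Emd.

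All 4 genes of eIF2, the complex that carries the initiator tRNA, rose in both comparisons, against 13.4% and 13.8% of all genes. Eif2s2, the beta subunit, had 161.4, 173.3 and 174.3 CPM in palmitate against 125.8, 132.2 and 132.6 CPM in vehicle, without overlap, for a log2 fold change of 0.38 ± 0.04. The gamma subunit comes from Eif2s3x on the X chromosome and Eif2s3y on the Y chromosome, and these rose by 0.35 ± 0.04 and 0.36 ± 0.07 in palmitate against vehicle. The Y copy supplied an overlapping share of the gamma messages in both groups, 38.8% to 43.6% in palmitate and 40.0% to 43.9% in vehicle. Eif2s3x shares 36.7% of its 31-base words with other transcripts, chiefly a pseudogene, and Eif2s3y 0.22%, so this share is uncertain, and Eif2s2 shares 32.1%, with a pseudogene. Eif2s1, the alpha subunit that stress kinases phosphorylate, had the smallest estimate of the complex in both comparisons. It had 58.3, 63.3 and 65.4 CPM in palmitate and 51.2, 59.0 and 57.4 CPM in vehicle, ranges that overlapped (0.16 ± 0.04, adjusted p = 0.019), and 59.7, 64.4 and 65.1 CPM in palmitate with C3a against 49.2, 54.0 and 58.5 CPM in vehicle with C3a (0.23 ± 0.04, adjusted p = 0.00245). Without palmitate replicate 1, palmitate replicate 3, vehicle replicate 1 or vehicle replicate 3 the first of these changes was 0.15 to 0.16 and was not called, with adjusted p from 0.0625 to 0.0773.

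Of the 5 subunits of eIF2B, which exchanges GDP for GTP on eIF2, the same 2 rose in both comparisons. The shares of all genes called higher were 13.4% without C3a and 13.8% with it. Eif2b3, the gamma subunit, had 23.9, 22.6 and 23.9 CPM in palmitate and 16.2, 16.96 and 16.8 CPM in vehicle. The groups were far apart for their spread, with a log2 fold change of 0.49 ± 0.06 (edgeR adjusted p = 0.000103) and 0.43 ± 0.06 with C3a. Eif2b5, the catalytic epsilon subunit and holder of a long pyrimidine run at its start, rose by 0.21 ± 0.04 in both comparisons. Eif2b1 and Eif2b2, the alpha and beta subunits, were at -0.03 ± 0.06 and 0.05 ± 0.08 in palmitate against vehicle and were not called in either comparison. For Eif2b4, the delta subunit, the estimate of 0.09 ± 0.28 was too wide to show a change, and its CPM ran from 8.11 to 17.8 over the libraries. Its counts were spread over 3 transcripts whose proportions differed between libraries; the part of this in the error was not tested. Of the factors that can bring a tRNA to the ribosome without eIF2, Eif2a rose by 0.25 ± 0.05 and Eif2d was at 0.02 ± 0.05.

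Of the 14 genes of eIF3, 12 rose in palmitate against vehicle and 11 in palmitate with C3a against vehicle with C3a. Among all genes 13.4% and 13.8% were called higher there. Eif3c, a core scaffold subunit on chromosome 7 (chr7:126546455-126566411, minus strand), had the largest change of the complex. It had 445.9, 473.7 and 439.2 CPM in palmitate and 280.5, 303.3 and 298.8 CPM in vehicle. With C3a it had 458.9, 457.8 and 432.4 CPM in palmitate and 284.1, 288.4 and 296.6 CPM in vehicle. In both cases every palmitate library lay far above every vehicle library, with a 1.54-fold difference without C3a (log2 0.62 ± 0.05, adjusted p = 9.08e-06) and a log2 fold change of 0.63 ± 0.05 with it (adjusted p = 7.14e-06).

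The other eIF3 genes that rose in palmitate against vehicle lay between 0.19 and 0.37. Among them Eif3d, a subunit that can bind the cap of some messages, rose by 0.37 ± 0.04 and Eif3b, a scaffold subunit, by 0.27 ± 0.04. Eif3a, the largest subunit, and Eif3l were at 0.11 ± 0.06 and 0.13 ± 0.05 and were not called in either comparison, although for both every palmitate library lay above every vehicle library without C3a. Leaving aside the loosely bound Eif3j1 and Eif3j2, the 12 subunit genes lay within 2.40-fold of each other per length, from 68.1 TPM for Eif3f to 163.5 TPM for Eif3c. Eif3f, with the longest pyrimidine run as counted near the annotated start, was also the eIF3 gene that differed most between batches (log2 0.51, batch 2 over batch 1). Its palmitate values of 101.8, 128.7 and 143.0 CPM therefore overlapped the vehicle values of 78.5, 112.6 and 117.4 CPM, although each palmitate library lay above the vehicle library of its own number (0.29 ± 0.05, edgeR adjusted p = 0.00243). Eif3j1 and Eif3j2 are near-identical copies, with 94.3% of the 31-base words of Eif3j2 found elsewhere, so the split of reads between them is uncertain, and Eif3m shares 53.7% of its words with a pseudogene. Single libraries decided some eIF3 calls: in palmitate against vehicle those of Eif3e, Eif3g, Eif3j1 and Eif3m were lost without palmitate or vehicle replicate 1, at adjusted p from 0.052 to 0.106. Those of Eif3g, Eif3j1 and Eif3m were also lost without palmitate replicate 3 (0.0602 to 0.0917), and those of Eif3j1 and Eif3m without vehicle replicate 2 or 3 (0.0538 to 0.0659). With C3a that of Eif3k was lost without any of the 6 libraries compared (adjusted p from 0.0573 to 0.102), that of Eif3j1 without replicate 1 of either group (0.0578 and 0.0568) and that of Eif3i without vehicle with C3a replicate 2 (0.0557).

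Of the 9 genes of eIF4F, which binds the cap and unwinds the message, 4 rose in palmitate against vehicle, where 13.4% of all genes rose. When C3a was present 1 rose (11.1%) and 1 fell, near the 13.8% called higher and 13.1% called lower among all genes. Eif4a1, the helicase form linked to growing cells, had 310.7, 243.7 and 247.2 CPM in palmitate and 233.0, 196.2 and 180.8 CPM in vehicle. The lowest palmitate library was above the highest vehicle library, and the log2 fold change was 0.39 ± 0.04 without C3a and 0.40 ± 0.04 with it. Eif4a2, the more abundant helicase in these islets, rose only by 0.13 ± 0.04, a call lost without palmitate replicate 1 or 3 or vehicle replicate 1 or 2 (adjusted p from 0.0512 to 0.0793), and was at 0.07 ± 0.04 with C3a (adjusted p = 0.199). The share of Eif4a1 in the helicase pair was 22.9% to 27.8% in palmitate and 19.3% to 23.9% in vehicle, ranges that overlapped, although it was higher in palmitate within each same-numbered pair. Eif4a1 shares 67.6% of its words with other transcripts, chiefly a processed pseudogene, so its absolute level is uncertain.

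Eif4e3, a cap-binding protein of the eIF4E family encoded on chromosome 6, was the single factor gene that fell. It had 25.7, 29.5 and 29.1 CPM in palmitate with C3a and 32.0, 35.2 and 35.4 CPM in vehicle with C3a, where each library was below its same-numbered counterpart and every palmitate library was below every vehicle library. The log2 fold change was -0.28 ± 0.05 (edgeR adjusted p = 0.00274), and 13.1% of all genes were called lower there. Without C3a it had 27.5, 33.0 and 29.8 CPM in palmitate and 32.4, 32.6 and 34.5 CPM in vehicle, which overlapped, for -0.14 ± 0.05 (adjusted p = 0.082). The difference between these values, the interaction, was -0.14 ± 0.08 with an unadjusted p of 0.0936, so the data do not show that C3a altered the response of this gene. Without palmitate replicate 2, whose value was the highest of its group, the change without C3a was -0.19 with an adjusted p of 0.0293. The main cap-binding gene Eif4e rose by 0.17 ± 0.05 in palmitate against vehicle, which was not called without palmitate replicate 2 or 3 or vehicle replicate 2 or 3 (adjusted p from 0.0521 to 0.0792). The share of Eif4e3 in the family was 19.4% to 23.3% in palmitate against 23.8% to 26.0% in vehicle.

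Of the eIF4F scaffolds, Eif4g2 was called in palmitate against vehicle. Eif4g1, the main bridge between cap and ribosome, was at 0.10 ± 0.06 without C3a and 0.11 ± 0.06 with it and was not called, and Eif4g3 was at 0.20 ± 0.08 and 0.19 ± 0.08, not called (edgeR adjusted p = 0.0837 and 0.0913). With the replicate number as a block in place of the batch, Eif4g3 was called in both comparisons (adjusted p = 0.021 and 0.0233). Eif4g2, which cannot bind eIF4E and serves cap-independent initiation, had 1086, 1046 and 993.6 CPM in palmitate and 951.4, 939.9 and 936.2 CPM in vehicle. These libraries did not overlap, and the change of 0.14 ± 0.04 was called at an adjusted p of 0.0305, but the call was lost without any single library of the palmitate and vehicle groups other than palmitate replicate 3 (adjusted p from 0.0626 to 0.113). With C3a it was at 0.12 ± 0.04, with an adjusted p of 0.0604 with the batch term and 0.0418 with the replicate block. Of the helicase partners, Eif4b rose by 0.22 ± 0.05 and by 0.28 ± 0.05 with C3a, the first lost without palmitate replicate 1 or vehicle replicate 1 (adjusted p = 0.0557 and 0.0628), while Eif4h was at 0.09 ± 0.04 and 0.01 ± 0.04. Eif4a3, the helicase of the exon junction complex, was at 0.09 ± 0.05 in both comparisons and was not called.

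The factors of late initiation included some of the largest changes. Eif5, which triggers GTP hydrolysis on eIF2 once the start codon is found, is on chromosome 12 (chr12:111538016-111546752, plus strand). It had 485.9, 509.3 and 477.2 CPM in palmitate and 301.2, 339.0 and 332.6 CPM in vehicle. It had 494.5, 473.7 and 460.7 CPM in palmitate with C3a and 303.1, 319.3 and 328.9 CPM in vehicle with C3a. Here too the palmitate and vehicle libraries lay far apart, and the log2 fold changes were 0.60 ± 0.05 (edgeR adjusted p = 1.93e-05) and 0.59 ± 0.05 (adjusted p = 1.82e-05). Both annotated Eif5 transcripts of this table are protein-coding and both contributed counts in every library.

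Eif6 binds the large ribosomal subunit and keeps it from joining too early. It had 72.0, 64.6 and 66.7 CPM in palmitate and 48.8, 49.3 and 43.7 CPM in vehicle, a clear separation, with log2 fold changes of 0.52 ± 0.06 without C3a and 0.46 ± 0.06 with it. Eif5b, the GTPase that joins the subunits, was higher by 0.13 ± 0.04 in both comparisons with adjusted p of 0.0479 and 0.0434, just under the threshold. Leaving out any of 9 single libraries ended either call, with adjusted p up to 0.181 without vehicle replicate 1 and up to 0.206 without palmitate with C3a replicate 1. Eif5a, the hypusine-carrying factor that helps ribosomes past difficult peptide bonds, rose by 0.31 ± 0.05 and by 0.28 ± 0.05 with C3a. Its paralogue Eif5a2 had 20.5, 22.6 and 20.7 CPM in palmitate and 20.6, 20.2 and 21.8 CPM in vehicle, which overlapped, and it made up 1.21% to 1.44% of the pair in palmitate and 1.51% to 1.61% in vehicle.

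**Figure D5:**
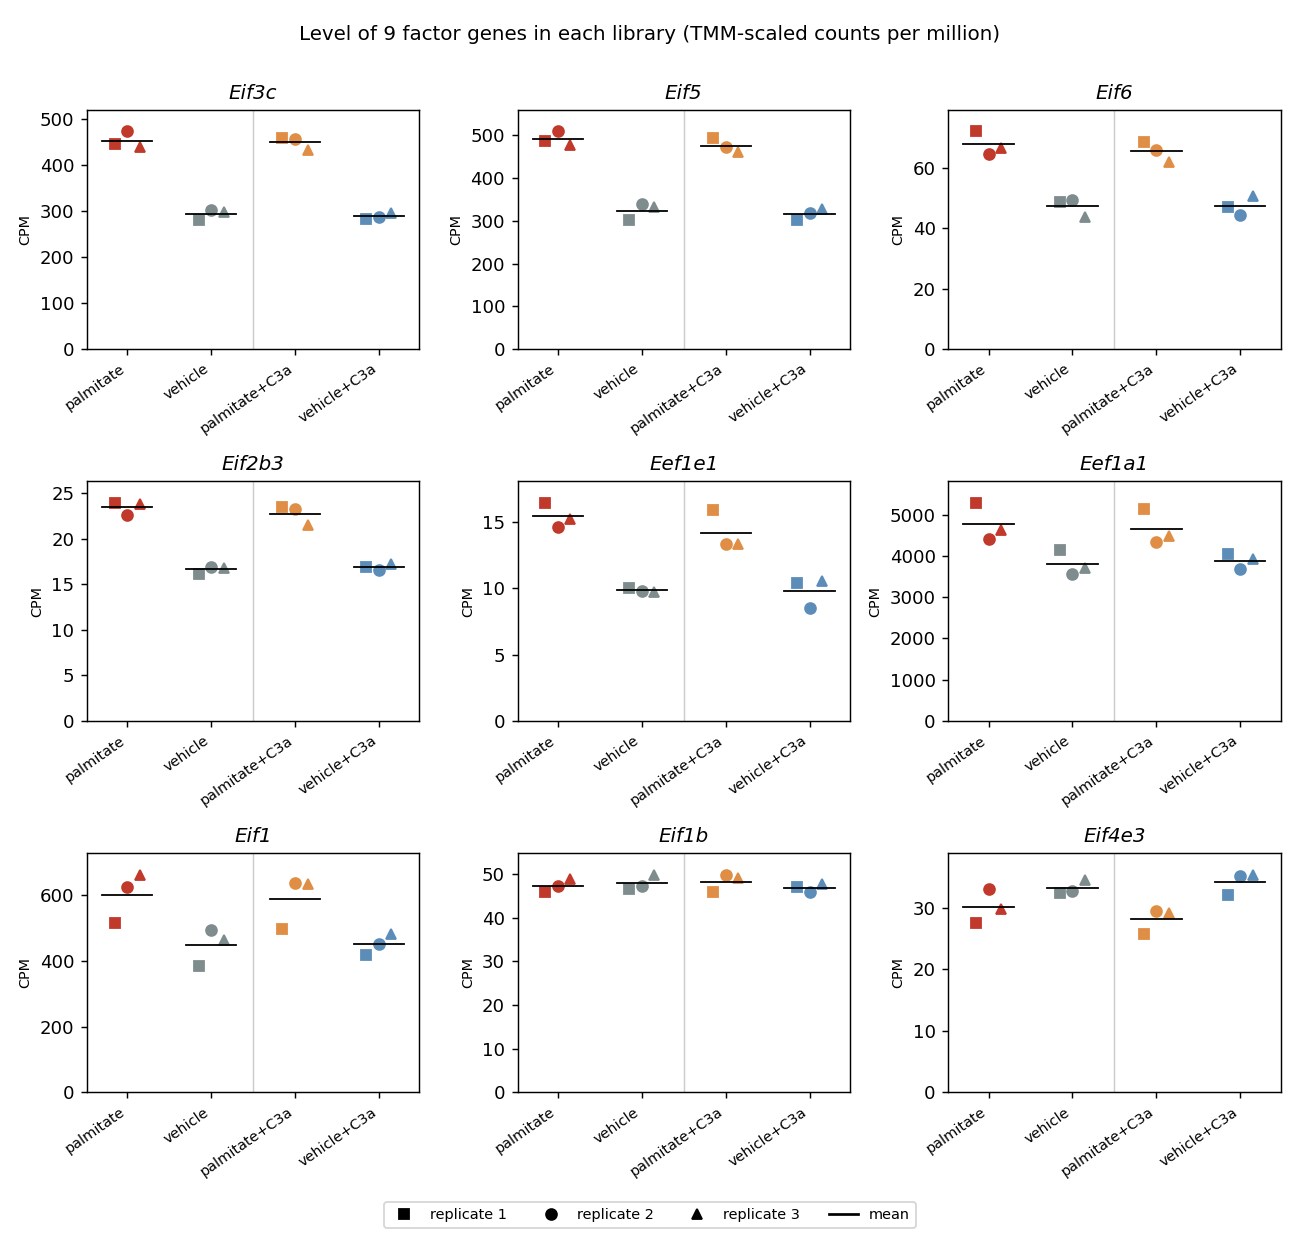
CPM of 9 factor genes in each library, with the vertical axes starting at 0; points are libraries, shapes are replicates and black lines are group means. Eif3c, Eif5, Eif6, Eif2b3, Eef1e1, Eef1a1 and Eif1 are higher in every palmitate library than in the vehicle libraries of the same C3a state, Eif1b is not, and Eif4e3 is lower in palmitate with C3a.

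All 7 elongation factor genes, counting Eef1e1 with them, rose in both comparisons, against 13.4% and 13.8% of all genes. Eef1a1 had 5287, 4420 and 4622 CPM in palmitate and 4139, 3567 and 3718 CPM in vehicle. Replicate 1, the batch 1 library, was the highest in each group, no vehicle library reached a palmitate library, and the log2 fold change was 0.33 ± 0.05 (edgeR adjusted p = 0.00071) without C3a and 0.26 ± 0.05 with it. Its paralogue Eef1a2, the form of muscle and neurons, had 40.3, 28.7 and 34.1 CPM in palmitate and 32.4, 25.6 and 27.0 CPM in vehicle. It supplied 0.553% to 0.648% of the pair in palmitate and 0.612% to 0.666% in vehicle, and its change of 0.27 ± 0.08 (adjusted p = 0.0295) was lost without palmitate replicate 1 or 3 or without any vehicle library, at adjusted p from 0.0621 to 0.119. With C3a it was 0.33 ± 0.08 and was lost without vehicle with C3a replicate 1 or 3 (adjusted p = 0.0708 and 0.0529). Eef1a1 shares 60.6% of its words with other transcripts, mostly pseudogenes.

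The exchange factors that reload eEF1A with GTP rose too. Eef1g had 554.1, 436.8 and 476.2 CPM in palmitate and 398.1, 362.6 and 349.1 CPM in vehicle, without overlap, for a log2 fold change of 0.40 ± 0.05. It shares 43.2% of its 31-base words with other transcripts, chiefly a pseudogene, and Eef1d shares 33.5%. Eef1b2 and Eef1d rose by 0.24 ± 0.05 and 0.25 ± 0.06. Eef1e1 by name belongs to eEF1, and its protein sits in the multi-synthetase complex. Eef1e1 had the largest estimate of all 61 genes in palmitate against vehicle, 0.64 ± 0.08 (edgeR adjusted p = 0.000262). In palmitate with C3a against vehicle with C3a it rose by 0.53 ± 0.08 (adjusted p = 0.000878). It had 16.4, 14.6 and 15.2 CPM in palmitate and 10.1, 9.81 and 9.75 CPM in vehicle. With C3a it had 15.9, 13.3 and 13.3 CPM in palmitate, against 10.4, 8.51 and 10.6 CPM in vehicle, so neither pair of groups overlapped. Eef2, the translocase, had 2144, 1826 and 1830 CPM in palmitate and 1604, 1502 and 1564 CPM in vehicle, also without overlap, for 0.31 ± 0.05 in both comparisons. It shares 23.2% of its 31-base words with other transcripts.

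Of the 6 enzymes that modify the elongation factors, 2 rose in both comparisons, where 13.4% and 13.8% of all genes were called higher. Eef2k, the kinase that inactivates eEF2, had 18.3, 20.2 and 19.9 CPM in palmitate and 16.5, 16.9 and 16.6 CPM in vehicle. With C3a it had 19.7, 20.3 and 18.4 CPM in palmitate, against 14.5, 16.9 and 15.6 CPM in vehicle. Neither pair of groups overlapped, and the changes were 0.23 ± 0.07 (edgeR adjusted p = 0.0246) and 0.31 ± 0.07 (adjusted p = 0.00451). The first was lost without palmitate replicate 2 or 3 or without any vehicle library, at adjusted p from 0.0522 to 0.0747. Eef1akmt4 was higher by 0.59 ± 0.16 and 0.56 ± 0.16, from 4.43 to 6.56 CPM in palmitate against 3.37 to 3.85 CPM in vehicle. It shares 42.3% of its words with an overlapping predicted gene, and its first call was lost without palmitate replicate 1 or 3 or vehicle replicate 1 (adjusted p from 0.0547 to 0.0883) and its second without palmitate with C3a replicate 1 or 3 or vehicle with C3a replicate 1 or 2 (adjusted p from 0.0526 to 0.0926). The methyltransferase genes Eef1akmt1, Eef1akmt2, Eef1akmt3 and Eef2kmt lay between -0.05 and 0.02 in palmitate against vehicle and were not called in either comparison.

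No factor gene passed the threshold in a C3a comparison. In palmitate with C3a against palmitate, edgeR and DESeq2 both called 0 of 61 genes, as edgeR called 0% of all genes, and an unadjusted p under 0.05 was found for 1 gene in edgeR and 2 in DESeq2. The gene was Eif2s3x, at 178.5, 169.1 and 169.2 CPM in palmitate with C3a and 189.8, 180.6 and 179.1 CPM in palmitate, for a log2 fold change of -0.09 ± 0.04 and an unadjusted p of 0.0401. The fold changes of the 61 genes ran from -0.12 to 0.08, and for 54 of them the 95% interval lay within 0.25 of 0 on the log2 scale. In vehicle with C3a against vehicle, both tools called 0 genes, with 0 genes at an unadjusted p under 0.05 in either, where edgeR again called 0% of all genes, and 57 intervals lay within 0.25 of 0. The interaction of C3a and palmitate, of which edgeR called 0% over all genes, was called for 0 factor genes by both tools, with 0 at an unadjusted p under 0.05 and 47 intervals within 0.25 of 0. Apart from Eif2b4 and Eif4e1b, the intervals reached from -0.39 to 0.29 in the first comparison and from -0.37 to 0.33 in the second.

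A wider list of translation genes was counted the same way. Of its 55 regulators and accessory factors of initiation, elongation and termination, 19 rose and 2 fell in palmitate against vehicle (median 0.13). With C3a 18 rose and 4 fell (median 0.14). Among all genes, 13.4% were called higher and 12% lower without C3a, and 13.8% and 13.1% with it. Eif4ebp1, the repressor that binds eIF4E, was at 51.9, 72.1 and 68.0 CPM in palmitate and 28.3, 34.3 and 33.1 CPM in vehicle, the largest rise of these genes at 1.00 ± 0.08. Ppp1r15a, the stress-induced subunit that directs dephosphorylation of eIF2 alpha, rose by 0.80 ± 0.09, with 83.6, 88.1 and 87.4 CPM in palmitate and 41.5, 51.7 and 56.4 CPM in vehicle. The poly(A)-binding proteins Pabpc1 and Pabpc4 rose by 0.41 ± 0.05 and 0.51 ± 0.07, the release factor Etf1 by 0.31 ± 0.04 and the ribosome assembly factor Ltv1 by 0.51 ± 0.07. The 2 that fell were Eif2ak1, the heme-regulated eIF2 kinase, at -0.18 ± 0.04 (edgeR adjusted p = 0.00913), and Paip1, a partner of the poly(A)-binding protein, at -0.12 ± 0.04 (adjusted p = 0.0467).

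The genes for the ribosome and for tRNA charging give a scale for these counts. Without and with C3a, 13.4% and 13.8% of all genes were called higher, and 12% and 13.1% lower. Of 75 cytosolic ribosomal protein genes tested, 65 rose and none fell in palmitate against vehicle, with a median of 0.27, and 67 rose with C3a, with a median of 0.28. Of 20 cytosolic aminoacyl-tRNA synthetases, 18 rose in each comparison and none fell, with medians of 0.40 and 0.36. The 61 factor genes had medians of 0.23 in both. Without the eEF1, eEF2 and eIF3 genes, 21 of the remaining 40 rose in palmitate against vehicle, with a median of 0.16, and 18 rose and 1 fell with C3a, with a median of 0.14. The differences between these groups of genes were not tested.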

How the data were processed

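Messenger RNA of 12 islet libraries was sequenced after preparation with a strand-marking kit, per the labels' protocols. The deposited values are estimated counts per transcript, not normalized. The submitters' processing notes name kallisto, DESeq2 and GRCm38, without roles or versions. For settings, strand use and transcriptome release, the sources used here give nothing. Counts of overlapping, antisense and near-identical genes are therefore uncertain.

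Of 71524 transcripts, 69942 matched GENCODE M21 and were summed to 22141 genes and rounded. The other 1582 held 0.581% to 0.677% of the counts. The 12 libraries differed beyond sampling noise. Genes were filtered with filterByExpr (15794 kept), given TMM factors (0.967 to 1.045), and tested in R 4.3.3 with the robust quasi-likelihood fit of edgeR 4.0.16, with group and sequencing batch as terms, leaving 7 residual degrees of freedom. The common coefficient of variation was 11.2%. Calls used a Benjamini-Hochberg adjusted p under 0.05 over all genes, two-sided. Standard errors are the log2 fold change over the root of F. TPM were computed here from counts and transcript length. Shared 31-base words were counted in the most abundant transcript of each gene.

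Same-numbered libraries deviated together, at correlations of 0.395 or more over 18 pairs (mean 0.575) and of 0.0799 or more over the 12 pairs of batch 2 (mean 0.115). Batch 2 has 2 libraries a group, which deviate from their mean by equal and opposite amounts. The pairs of number 2 and those of number 3 therefore give the same correlations and are not separate evidence. In the labels number 1 marks sequencing batch 1, and numbers 2 and 3 each go with a date-like tag that all 4 groups share, so the numbers were taken to pair the libraries. Blocking on the replicate number was an alternative, as were other scalings, filters, tests (DESeq2 1.42.0), transcript sums and sets of libraries, each library being left out in turn.

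Genes were named by rule: up to 4 of smallest p per complex, the 6 highest and lowest changes, the 6 highest and lowest levels, and paralogues. Other factor genes are named as examples or exceptions after their values were seen. The factor genes and all lists were chosen with earlier results of these data known.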

Additional observations from a re-analysis of the deposited data

How the results depend on the processing

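The count of 40 factor genes higher in palmitate against vehicle was 21 with no batch term and 25 in batch 2 alone. It was 41 with the replicate block, 40 with DESeq2 size factors, 33 with total counts, 39 with no filter, 41 in DESeq2, 34 with the most abundant transcript only, and 28 to 41 when each library was left out in turn. The count of 36 higher with C3a was 22 with no batch term, 39 with the replicate block, 29 with the most abundant transcript only, 25 in batch 2 alone, and 31 to 37 without single libraries. The count of 0 lower in palmitate against vehicle was 0 to 1 without single libraries, the 1 being Eif4e3 without palmitate replicate 2; with C3a it was 1 throughout. The replicate block added calls for Eif4g3 in both comparisons (adjusted p = 0.021 and 0.0233) and for Eif3m and Eif4g2 with C3a (0.0168 and 0.0418). In palmitate against vehicle 18 of 40 calls were lost under no alternative, among them Eif3c, Eif5, Eif6, Eif2b3, Eef1e1 and Eef2, and 17 of 37 with C3a, among them Eif4e3. Eif5b was lost under 16 alternatives in each comparison, Eif4a2 and Eif4g2 under 10 and Eef2k and Eef1a2 under 9 without C3a. Scaling factors taken without the factor and ribosomal protein genes, chosen after seeing the data, gave 40 and 36. The C3a comparisons and the interaction gave 0 calls under every alternative run, and no named gene changed direction while called. The cause was not tested, beyond the fewer libraries in batch 2 alone and in single omissions. Eif2b4 and the low Eif4e1b, with standard errors of 0.28 and 0.29, could not show changes of the size seen in the other genes.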
